A study of Mus musculus with 6 samples.

Results

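Annotated noncoding RNA genes were examined in S-phase progenitor cells of the embryonic mouse cerebral cortex. A noncoding gene was taken as a RefSeq symbol that the array covers only through accessions of noncoding transcripts (NR_) and through no accession of a coding transcript (NM_). Of 647 such probes, which stand for 545 genes, 304 probes of 251 genes were described. They were selected on a measured value, the scanner software's score of a signal well above background, which had to hold in all 3 replicates of either group, so detection itself is a description. Of the 304 probes, 180 belonged to long noncoding RNAs (lncRNAs), 105 to transcribed pseudogenes, and the rest to antisense, small nuclear, small nucleolar, ribosomal, telomerase, RNase P and RNase MRP RNAs, plus 1 gene whose RefSeq class is protein-coding. Among the members, 275 probes of 227 genes were well above background on all 6 arrays. A further 6 probes passed only because all positive arrays detected them, and 23 only because all negative arrays did.

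Cells came from the dorsal telencephalon at embryonic day 14.5. All embryos of both groups were heterozygous for GFP knocked into the Tis21 (Btg2) locus on a C57BL/6 background, so the cells had 1 modified allele of that gene in either group. The groups were Tis21-GFP positive S-phase cells (3 arrays) and Tis21-GFP negative S-phase cells (3 arrays), both sorted for cells part of the way through DNA replication. The reporter follows the Tis21 promoter, which is active in progenitors that have switched to making neurons, and 1 replicate pooled 30 hemispheres of 15 embryos, with 3 of the independent experiments kept by the authors. The comparison addresses what distinguishes progenitors committed to neuron production from those that still expand. All values below are log2 signals relative to the array's 75th percentile, and differences are positive minus negative.

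Noncoding RNAs act without being translated. Some, such as Neat1 and Malat1, build or occupy nuclear bodies, and others silence neighbouring genes in cis, as imprinted RNAs and Xist do. Some carry small nucleolar RNAs or microRNAs in their introns. Many lncRNA genes in the developing brain lie beside genes for transcription factors and signalling molecules, and pseudogene transcripts can share long stretches of sequence with their parent genes.

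The labels held at the level of markers. The intermediate progenitor list was higher for 6 of 6 genes, with summed linear signals of 217 to 258 in positive cells against 31.2 to 48.6 in negative cells, and 6 of 7 radial glial genes were lower. All 5 dorsal telencephalon genes were detected. Markers of other cells moved as well: 10 of 10 tested microglial genes were lower, with summed signals of 4.30 to 7.85 in positive cells against 14.4 to 18.8 in negative cells, and 7 of 7 mesenchymal genes were lower, with 0.625 to 0.916 in positive cells against 4.55 to 9.04 in negative cells. Of 7 endothelial and pericyte genes 4 were lower, and the pericyte genes Rgs5, Pdgfrb and Abcc9 were detected on 0 positive arrays. The list's summed signals, 9.51 to 10.5 in positive cells against 8.14 to 9.35 in negative cells, came mostly from Kdr. Kdr was not called (0.45, limma adjusted p = 0.0837), and the other tested genes of that list had lower means in positive cells. Of 6 cortical neuron genes 4 were higher and 1, Stmn2, was lower, with summed signals of 99.8 to 133 in positive cells against 60.1 to 88.7 in negative cells. Col3a1 and Lum, which define mesenchyme, had no positive array with a signal well above background, and Col1a1 and Nid1 had 1 each. Of the microglial genes, Laptm5 had 0 and Cx3cr1 had 2. These genes and the 3 pericyte genes passed detection through the negative arrays only, so their lower values are a description. Among all 28922 tested probes, 7.52% were called higher and 8.96% lower. The array's 75th percentile was 212.7 to 311.1 intensity units in positive cells and 283.9 to 340.7 in negative cells, and 28519 to 29273 probes against 29312 to 31274 were well above background. In such bulk samples, fewer cells of a type and less RNA per cell cannot be told apart, and the part of the other cell types in the noncoding results was not tested.

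The lncRNAs Gm2694 and Dubr and the microRNA host Mir124-2hg were higher in Tis21-GFP positive cells, by 1.66, 1.18 and 1.16 on the log2 scale. Neat1, 2010204K13Rik and Sox1ot were lower, with differences of -1.61, -1.66 and -1.86. Of the listed nuclear and imprinted RNAs, 1 of 8 each was called. On all 6 arrays, 14 of 275 probes were higher and 19 were lower in positive cells by limma with Benjamini-Hochberg adjustment over all 28922 tested probes (adjusted p under 0.05). These are 5.09% and 6.91% of the probes, beside a background of 7.73% higher and 7.02% lower among all 26199 tested probes well above background on 6 arrays. Over all 304 members, including those detected in 1 group only, 17 were higher and 25 lower, beside a background of 7.52% and 8.96%. The groups did not overlap for 103 of the 275 probes, 37.5%, beside a background of 39.7%, and for 114 of the 304, also 37.5%, beside 40.6%. Each share lay near or under its background. The median difference of the 275 probes was 0.118, against 0.113 for all probes on 6 arrays, and it turned to -0.055 when arrays were scaled by the percentile of probes detected on all of them. With each array centred on its median, 31 of the 275 probes were higher and 11 lower. With normexp background correction, 13 of the 33 called differences shrank by over 1.5 times. That alternative took the median spot signal, added an offset of 50 intensity units and applied quantile normalization. Such an offset by itself shrinks the differences of dim probes, and the parts of these steps were not tested. Among lncRNAs on all 6 arrays, 9 of 161 probes were higher and 11 lower, with a median of 0.078, and among pseudogenes 4 of 98 were higher and 7 lower, with a median of 0.199. Of the 275 differences, 211 lay within 0.5 of 0. Their quartiles were -0.201 and 0.345, beside -0.185 and 0.347 for all 26199 tested probes on 6 arrays.

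**Figure D1:**
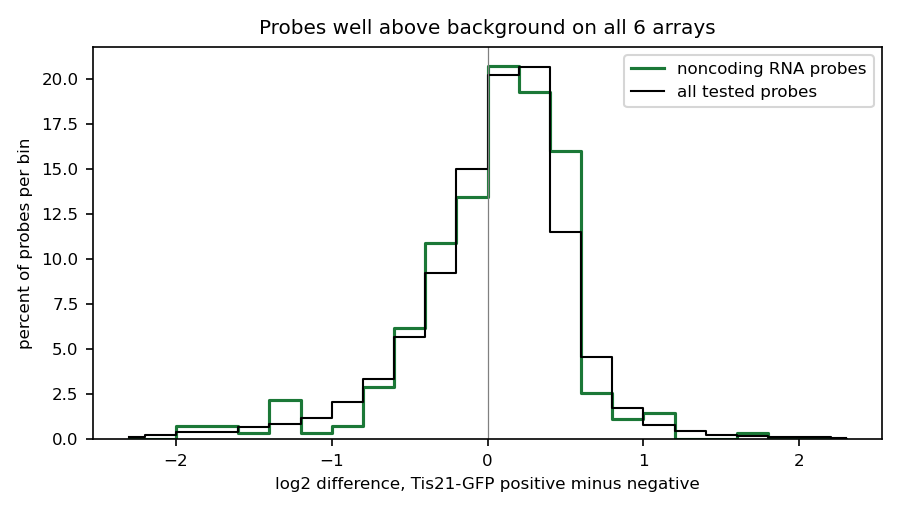
Percent of probes (y axis) by log2 difference, Tis21-GFP positive minus negative (x axis, bins of 0.2), for the 275 noncoding RNA probes (green) and the 26199 tested probes (black) that were well above background on all 6 arrays. The medians were 0.118 and 0.113, and the quartiles were -0.201 and 0.345 for the noncoding probes against -0.185 and 0.347 for all.

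Detection was less frequent for noncoding than for coding probes, as a description of the rule. Members were 47.0% of their 647 candidate probes, against 65.6% of NM_ probes, and 287 candidates were well above background on no array. The share was 43.0% of 419 lncRNA probes and 51.7% of 203 pseudogene probes. Just inside the threshold, Gm10046 and AW011738 had a probe detected on 0 positive and 3 negative arrays, with means of -5.12 and -4.75 in positive cells against -3.86 and -3.75 in negative cells. Just outside it, Gm6787 was detected on 2 positive arrays and 1 negative array (means of -2.68 and -3.72), and Gm7104 on 2 arrays of each group (means of -3.48 and -3.58).

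Gm2694 was the lncRNA with the largest higher call on all 6 arrays, and lies beside Cbln1, which encodes a secreted synapse organiser. It had -0.24, -0.22 and 0.10 in positive cells, against -1.83, -1.90 and -1.63 in negative cells. The positive arrays lay above all negative arrays, by 1.66 ± 0.16 on the log2 scale (± is the SE, 3 arrays a group, limma adjusted p = 0.000931). Cbln1 itself had a difference of -0.14 (adjusted p = 0.577). Dubr, a lncRNA studied in myoblast differentiation, had 0.49, 0.27 and 0.50 in positive cells, against -1.12, -0.55 and -0.62 in negative cells. Its positive arrays were all the higher ones, by 1.18 ± 0.19 (adjusted p = 0.00613). The promoter windows of both are printed as starts whose RNAs were higher without a called change of the nearest tested coding gene. Bbx, the nearest tested gene to Dubr but 294285 bases away, had 0.605 (limma adjusted p = 0.084). The windows run from 250 bases before to 50 bases after the annotated start, from RefSeq, build GRCm38.p6, with nothing in capitals.
Gm2694, chr8:87472866-87473165, plus strand: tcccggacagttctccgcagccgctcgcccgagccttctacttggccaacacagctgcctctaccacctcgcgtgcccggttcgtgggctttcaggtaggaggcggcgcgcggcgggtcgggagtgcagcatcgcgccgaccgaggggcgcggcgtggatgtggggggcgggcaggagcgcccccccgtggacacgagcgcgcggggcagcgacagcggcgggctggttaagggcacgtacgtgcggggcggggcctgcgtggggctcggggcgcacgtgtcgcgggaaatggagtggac
Dubr, chr16:50732724-50733023, minus strand: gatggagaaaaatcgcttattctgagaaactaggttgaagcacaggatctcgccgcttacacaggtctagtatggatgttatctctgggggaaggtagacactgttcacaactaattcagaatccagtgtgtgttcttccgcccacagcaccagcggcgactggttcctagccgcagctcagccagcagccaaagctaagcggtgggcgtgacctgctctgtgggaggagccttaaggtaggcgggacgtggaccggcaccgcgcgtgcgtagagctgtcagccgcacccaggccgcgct

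Tyms-ps is a pseudogene of thymidylate synthase, the enzyme that makes dTMP for DNA replication. It had 3.10, 2.88 and 2.97 in positive cells, against 1.99, 2.20 and 1.95 in negative cells, a difference of 0.94 ± 0.15 (limma adjusted p = 0.0054). Its groups did not overlap. The parent Tyms had a difference of 0.47 ± 0.16 (adjusted p = 0.0828), with -0.56, -0.17 and -0.51 in positive cells against -0.90, -0.80 and -0.95 in negative cells. A pseudogene probe may bind the parent transcript, and this was not tested since probe sequences were not used. The lncRNA 2810410L24Rik had 1.06, 1.25 and 1.01 in positive cells, against 0.28, 0.21 and 0.24 in negative cells, a difference of 0.865 ± 0.137 (adjusted p = 0.00589) on its brighter probe and 0.44 (adjusted p = 0.248) on the other.

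Further higher calls were smaller than those of Gm2694 and Dubr, and some were lost on leaving out 1 array. Zfhx2os is antisense to the homeobox gene Zfhx2 and had 1.42, 0.95 and 1.76 in positive cells, against 0.49, -0.09 and 0.38 in negative cells (1.12 ± 0.25, limma adjusted p = 0.0219). Zfhx2 had a difference of -0.07 (adjusted p = 0.916). The Zfhx2os call was lost without positive replicate 1 or any 1 negative array (0.94 to 1.23, adjusted p 0.0514 to 0.0712). Rnf227, whose transcript RefSeq classes as a lncRNA, had 0.49, 0.77 and 0.73 in positive cells against -0.21, -0.75 and -0.11 in negative cells (1.02 ± 0.20, adjusted p = 0.0144). The lncRNA 9130024F11Rik had 0.90, 0.91 and 0.65 in positive cells against 0.14, 0.00 and -0.18 in negative cells (0.83 ± 0.16, adjusted p = 0.0119). It did not pass without negative replicate 3 (0.75, adjusted p = 0.0566).

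D330050I16Rik had a difference of 0.78 ± 0.21 (limma adjusted p = 0.0398), and its adjusted p was 0.0597 with the replicate number as a block. It still passed without positive replicate 3, but leaving out any other array gave 0.59 to 0.88 (adjusted p 0.0648 to 0.115), and with normexp it had 0.42. Smarca5-ps, a pseudogene of the chromatin remodeller Smarca5, had 0.74 ± 0.14 (adjusted p = 0.0135) on 1 of its 3 probes and 0.37 and -0.37 on the others. Without negative replicate 1 the called probe had 0.675 (adjusted p = 0.0609), and Smarca5 had 0.49 ± 0.15 (adjusted p = 0.0656). The pseudogene Gm5176 had 0.71 ± 0.20 (adjusted p = 0.0466), which was lost on leaving out any array but positive replicate 1 (0.55 to 0.78, adjusted p 0.0689 to 0.156). 1500011B03Rik and BC025920 were the remaining calls, at 0.59 and 0.58. Each was lost on leaving out any array but positive replicate 3 (adjusted p 0.0748 to 0.126 and 0.0774 to 0.135), and BC025920 had adjusted p = 0.052 with the block. The other, brighter BC025920 probe had 0.515 (limma adjusted p = 0.0574).

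**Figure D2:**
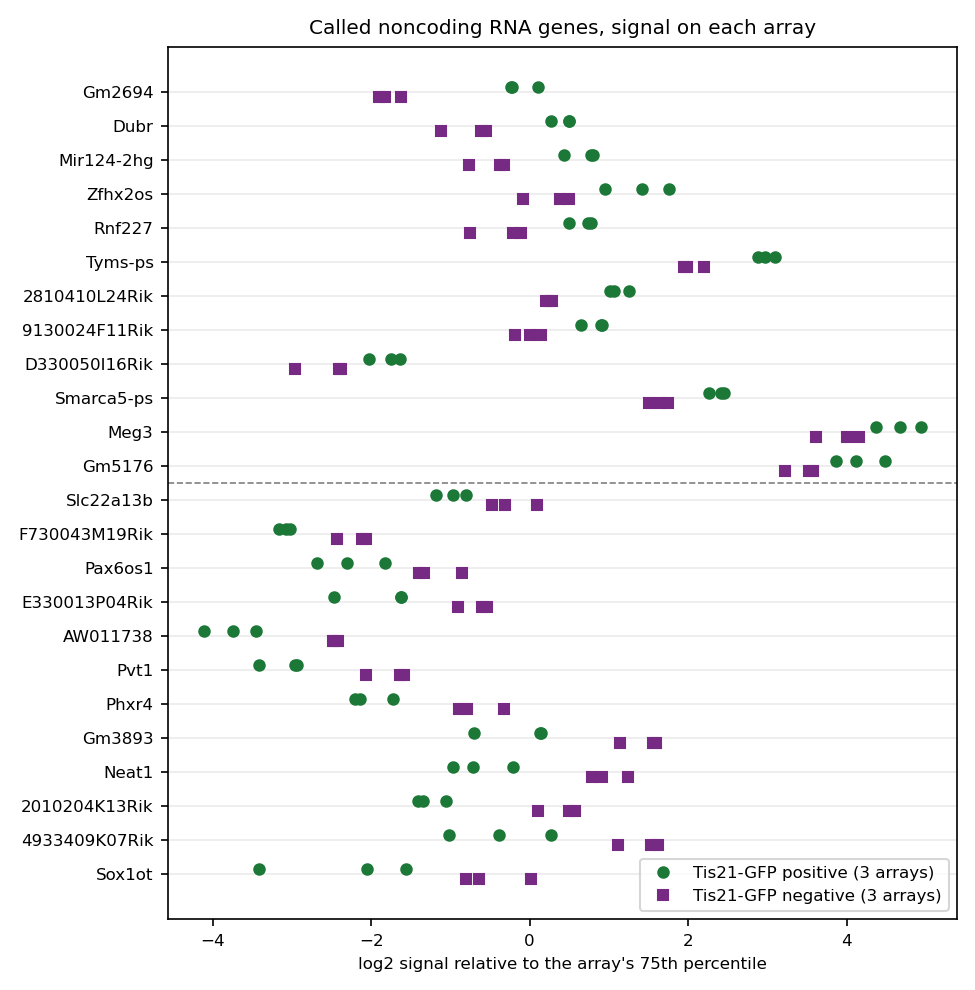
Log2 signal relative to the array's 75th percentile (x axis) on each of 6 arrays for 24 called noncoding RNA genes (rows), with Tis21-GFP positive arrays as green circles above the Tis21-GFP negative arrays as purple squares. Genes above the dashed line were higher in positive cells. Rows were chosen from called probes whose groups did not overlap, each gene by its probe with the largest called difference. Groups did not overlap for 37.5% of the 275 noncoding probes and 39.7% of all tested probes on 6 arrays.

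Other RNAs were well above background on few or no negative arrays, and their values are a description with no test. Gm14207 is a lncRNA whose start lies within 1000 bases of that of Dll4, which encodes a Notch ligand. It had -2.19, -2.0 and -2.54 in positive cells, against -6.27, -6.74 and -5.56 in negative cells, none of which was well above background. Gm14207 was at least 3.97-fold higher, taking each negative array at the lowest signal called well above background where its own was lower. Dll4 was itself well above background on only 1 positive and 0 negative arrays, with -4.09, -3.81 and -4.21 in positive cells against -5.40, -4.79 and -5.38 in negative cells, and it was not tested. A530058N18Rik shares a start region with Gjd2, the gene of the neuronal gap-junction protein connexin 36, on the opposite strand. It had -1.84, -2.23 and -1.94 in positive cells, against -4.60, -5.49 and -4.08 in negative cells, where 1 array was well above background. Gjd2 had -2.27, -1.92 and -1.82 in positive cells, against -4.29, -4.06 and -4.61 in negative cells, also with 1 negative array above background (difference of 2.32 ± 0.20). Both genes passed detection through the positive arrays only, so the separation of their groups is a description. With normexp the differences were 0.949 and 0.966. AA387883 was at least 3.14-fold and Flicr, a lncRNA that modulates Foxp3 in regulatory T cells, at least 1.51-fold higher, each with no negative array well above background.

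The promoter windows of Gm14207 and A530058N18Rik are shown because each holds an E-box of the sequence CAGATG, the kind bound by proneural factors such as Neurog2, given in capitals. The search covered both strands, so CATCTG on the printed strand also counts.
Gm14207, chr2:119326148-119326447, minus strand: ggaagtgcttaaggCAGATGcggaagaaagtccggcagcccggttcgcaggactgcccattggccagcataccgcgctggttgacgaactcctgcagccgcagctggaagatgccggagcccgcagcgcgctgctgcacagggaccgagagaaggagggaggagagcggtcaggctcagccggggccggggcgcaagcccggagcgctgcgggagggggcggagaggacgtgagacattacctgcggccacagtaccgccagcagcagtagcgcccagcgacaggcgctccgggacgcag
A530058N18Rik, chr2:114013315-114013614, plus strand: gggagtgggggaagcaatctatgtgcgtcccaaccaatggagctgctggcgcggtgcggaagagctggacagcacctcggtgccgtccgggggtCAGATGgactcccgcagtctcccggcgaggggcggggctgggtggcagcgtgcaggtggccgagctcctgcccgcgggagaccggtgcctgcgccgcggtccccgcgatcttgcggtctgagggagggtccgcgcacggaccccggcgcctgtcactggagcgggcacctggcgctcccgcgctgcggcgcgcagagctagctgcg
The same motif stood in 13.7% of the 146 windows of members and in 17.2% of all 32851 windows. A window of 2010204K13Rik, which was lower in positive cells, held it 2 times. Those of Kcnq1ot1, not called, and of D330050I16Rik, called higher, held it 1 time each. The sequence TCACAC, a T-box core, stood in 13.0% of members' windows against 14.5% of all, and GTGGGAA, the Rbpj core, in 4.79% against 6.38%. Windows were held for 130 of the 251 member genes. A match here is a description of letters.

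Neat1, the scaffold of nuclear paraspeckles, was lower in positive cells. It had -0.97, -0.71 and -0.21 in positive cells, against 0.91, 0.79 and 1.24 in negative cells. The groups did not overlap, and the difference was -1.61 ± 0.23 (limma adjusted p = 0.00352). Frmd8, the nearest tested coding gene to Neat1, had 0.04 (adjusted p = 0.887). 2010204K13Rik, a lncRNA on chromosome X, had -1.05, -1.41 and -1.35 in positive cells, against 0.10, 0.57 and 0.49 in negative cells (-1.66 ± 0.18, adjusted p = 0.00141). Ipw, an imprinted RNA of the Prader-Willi region, had -3.95, -4.26 and -3.32 in positive cells, against -1.34, -2.21 and -1.68 in negative cells, with 2 positive arrays well above background. It passed the detection rule through the negative arrays, so its difference of -2.10 is a description (-0.77 with normexp). Snrpn of the same imprinted domain had 0.36 (adjusted p = 0.47).

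Sox1ot, the lncRNA that overlaps the neural progenitor gene Sox1, had -1.56, -3.41 and -2.05 in positive cells, against -0.64, -0.81 and 0.02 in negative cells. The difference was -1.86 ± 0.46 (limma adjusted p = 0.0315), and the call was lost on leaving out any 1 negative array (-2.03 to -1.61, adjusted p 0.068 to 0.108). With normexp it was -0.97. Its other probe was well above background on no positive array and was at least 1.7-fold lower. Sox1, a transcription factor of neural progenitors, had 1.29, 1.46 and 1.29 in positive cells against 2.18, 2.52 and 2.70 in negative cells and was lower, with a difference of -1.12 ± 0.17 (adjusted p = 0.00509). The nearest tested coding gene to the lncRNA BC006965 was Sox9, 70854 bases away. BC006965 had -3.75, -5.27 and -3.47 in positive cells, against -2.45, -1.98 and -2.45 in negative cells. BC006965 was above background on 2 positive arrays, and its difference of -1.87 is a description. Sox9, which encodes a transcription factor of radial glia, was lower, with a difference of -1.36 ± 0.16 (adjusted p = 0.00169). The Sox1ot window is printed as the start of the lncRNA whose partner gene was also called lower.
Sox1ot, chr8:12385521-12385820, plus strand: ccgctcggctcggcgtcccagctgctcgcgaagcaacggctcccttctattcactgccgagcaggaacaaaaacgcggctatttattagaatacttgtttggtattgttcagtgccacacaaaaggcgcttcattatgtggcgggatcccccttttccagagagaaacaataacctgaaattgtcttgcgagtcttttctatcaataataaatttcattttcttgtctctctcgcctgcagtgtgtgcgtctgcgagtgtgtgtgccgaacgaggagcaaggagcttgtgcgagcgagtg

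Pax6os1 and Emx2os lie opposite transcription factor genes of the cortex, and their partners were not called with them. Pax6os1 had -1.82, -2.30 and -2.69 in positive cells, against -1.33, -0.85 and -1.40 in negative cells (-1.08 ± 0.25, limma adjusted p = 0.0277), and did not pass without positive replicate 2 or any 1 negative array (-1.18 to -0.905, adjusted p 0.0614 to 0.0869). Pax6 had 0.02 ± 0.13 (adjusted p = 0.948). Emx2os had a difference of -0.56 ± 0.14 (adjusted p = 0.0362) on 1 of its probes. The call was lost on leaving out any 1 of the 6 arrays (-0.63 to -0.495, adjusted p 0.0589 to 0.112) and with the replicate block (adjusted p = 0.0502). Emx2 had 0.43 ± 0.20 (adjusted p = 0.183). With normexp Pax6os1 had -0.49 and Emx2os -0.11.

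Pvt1 is a lncRNA whose nearest tested coding gene, 47625 bases away, was Myc, a growth regulator, and the Pvt1 probes disagreed. The dimmer probe had -2.94, -3.41 and -2.96 in positive cells, against -2.06, -1.59 and -1.64 in negative cells (-1.34 ± 0.20, limma adjusted p = 0.00436). The brighter probe had -0.125 ± 0.218 (adjusted p = 0.717), and Myc had -0.24 (adjusted p = 0.471). Phxr4, which overlaps Maml2, a coactivator gene of the Notch pathway, had -2.2, -1.72 and -2.14 in positive cells, against -0.32, -0.89 and -0.79 in negative cells (-1.35 ± 0.21, adjusted p = 0.00512). Maml2 had -0.95 ± 0.20 (adjusted p = 0.0189), a call that was lost without positive replicate 1 or any 1 negative array (-1.001 to -0.908, adjusted p 0.0524 to 0.0762). AW011738, beside Perm1, had -3.75, -4.11 and -3.45 in positive cells, against -2.47, -2.42 and -2.48 in negative cells (-1.31 ± 0.19, adjusted p = 0.00375). With normexp background correction the differences shrank to -0.45 for AW011738, -0.52 for the dimmer Pvt1 probe and -0.88 for Phxr4. Perm1, a regulator of mitochondrial genes in muscle, had -4.31, -5.09 and -4.52 in positive cells, against -3.35, -3.09 and -3.51 in negative cells, and was well above background on no positive array, so its values are a description.

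Pseudogenes among the lower calls included Gm3893, with both probes lower (-1.575 ± 0.260 and -1.25 ± 0.19). Its brighter probe had 0.13, -0.70 and 0.14 in positive cells, against 1.60, 1.14 and 1.56 in negative cells (limma adjusted p = 0.00696). 4933409K07Rik had -0.39, -1.02 and 0.27 in positive cells, against 1.53, 1.12 and 1.62 in negative cells (-1.80 ± 0.32, adjusted p = 0.00897), whereas its other probe had -0.51 (adjusted p = 0.271). Slc22a13b was lower, with a difference of -0.76 ± 0.19 (adjusted p = 0.0349) and lost its call on leaving out any array but positive replicate 3 (-0.88 to -0.60, adjusted p 0.0567 to 0.116). Among lncRNAs, E330013P04Rik was lower, with a difference of -1.23 ± 0.25 (adjusted p = 0.0173) and did not pass without negative replicate 2 or 3 (-1.19 to -1.15). F730043M19Rik, which starts opposite Atxn7l1, was lower, with a difference of -0.89 ± 0.15 (adjusted p = 0.00825), and Atxn7l1 had -0.18 (adjusted p = 0.437). With normexp background correction F730043M19Rik had -0.20 (adjusted p = 0.253). With it E330013P04Rik had -0.66, Slc22a13b -0.35 and the dimmer Gm3893 probe -0.81. The remaining lower calls were BC021767, Gm12216, Gm8096, 2810025M15Rik and Gm9199, at -0.735, -0.68, -0.665, -0.64 and -0.56. Each of these was lost on leaving out at least 4 of the 6 arrays in turn, and Gm9199 on leaving out any. The other, brighter 2810025M15Rik probe had -0.28 (limma adjusted p = 0.214) and was not called.

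Members detected on no positive array, given as bounds with no test, were Igf2os at least 1.44-fold, Rprl3 at least 1.54-fold, the other AW011738 probe at least 1.26-fold and Gm10046 at least 1.17-fold lower. Igf2os overlaps Igf2, which encodes a growth factor of meninges and vessels in the embryonic brain. It had -4.02, -4.87 and -4.59 in positive cells, against -3.46, -3.78 and -3.30 in negative cells. Igf2 was likewise above background on no positive array, with -4.22, -4.22 and -4.66 in positive cells against -2.80, -3.34 and -2.95 in negative cells. Igf2os and Igf2 were lower in positive cells, the direction of the mesenchymal markers given above, whose part in them was not tested. 2900079G21Rik, beside the neuronal gene Arpp21, had -3.42, -3.46 and -4.27 in positive cells, against -1.66, -2.63 and -2.2 in negative cells, with 2 positive arrays well above background.

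Nuclear RNAs other than Neat1 were not called. Of 8 tested genes of that list, 0 were higher and 1 was lower, with a median difference of 0.069. Malat1, which resides in nuclear speckles, had 3.39, 3.21 and 4.42 in positive cells, against 4.10, 4.48 and 4.71 in negative cells. The groups overlapped, at -0.76 ± 0.33 (limma adjusted p = 0.15). Norad, which binds Pumilio proteins, had 0.19 ± 0.15 (adjusted p = 0.413) on its brightest of 4 probes, and Tug1 had 0.38 ± 0.18 (adjusted p = 0.192). Terc, the telomerase template, Rmrp and Rpph1 had 0.07 (adjusted p = 0.831), 0.06 (0.917) and 0.54 (0.601). The labelling kit is known to prime from poly(A) tails, which mature Terc, Rmrp and Rpph1 lack, and what their probes measured was not tested.

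Of 9 tested genes that host small nucleolar RNAs in their introns, 0 were higher and 0 lower by limma, with a median of -0.058. Snhg6 had 4.91, 4.76 and 5.00 in positive cells, against 4.82, 4.93 and 4.93 in negative cells, a difference of 0.00 ± 0.14 (adjusted p = 0.998). The lowest difference was that of Snhg12, at -0.47 ± 0.17 (adjusted p = 0.0992), with groups that did not overlap. Snhg12 passed under 5 alternatives, namely quantile normalization, the percentile of probes detected on all arrays, normexp, the authors' values and a variance trend (-0.67 to -0.47, adjusted p 0.016 to 0.0488). The highest was that of Snhg10, at 0.31 ± 0.15 (adjusted p = 0.183). Snhg1, Snhg3, Snhg7, Snhg16, Snhg17 and Dancr lay between -0.21 and 0.175.

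Of 8 tested genes on the list of imprinted and X-inactivation RNAs, 1 was higher and 0 were lower, with a median of 0.04. That fixed list did not hold Ipw or Igf2os, which had lower values in positive cells and are described above. Meg3, the maternally expressed RNA of the Dlk1 domain, had 4.37, 4.94 and 4.67 in positive cells, against 4.15, 3.61 and 4.01 in negative cells on its brightest probe. That difference of 0.74 ± 0.21 (limma adjusted p = 0.0498) did not pass with the replicate block (adjusted p = 0.0822), and was lost on leaving out any array but positive replicate 1 (0.58 to 0.85, adjusted p 0.0793 to 0.13). The other Meg3 probes had 0.45 and -0.55, so the probes disagreed in sign. Mirg of the same domain had 0.16 ± 0.18 (adjusted p = 0.573), and Dlk1 had -0.575 ± 0.317 (adjusted p = 0.24). Xist, which coats the inactive X chromosome, had 2.59, 2.04 and 3.83 in positive cells, against 2.86, 2.91 and 3.58 in negative cells, with overlapping groups (-0.29 ± 0.43, adjusted p = 0.665). Kcnq1ot1 had -0.54 ± 0.19 (adjusted p = 0.0967) on its brighter probe and 0.13 on the other, and Airn had -0.30 ± 0.19 (adjusted p = 0.298). Gnasas1, an antisense RNA of the imprinted Gnas locus, had 0.515 ± 0.241 (adjusted p = 0.178). Peg13 and Ftx had 0.05 and 0.03.

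**Figure D3:**
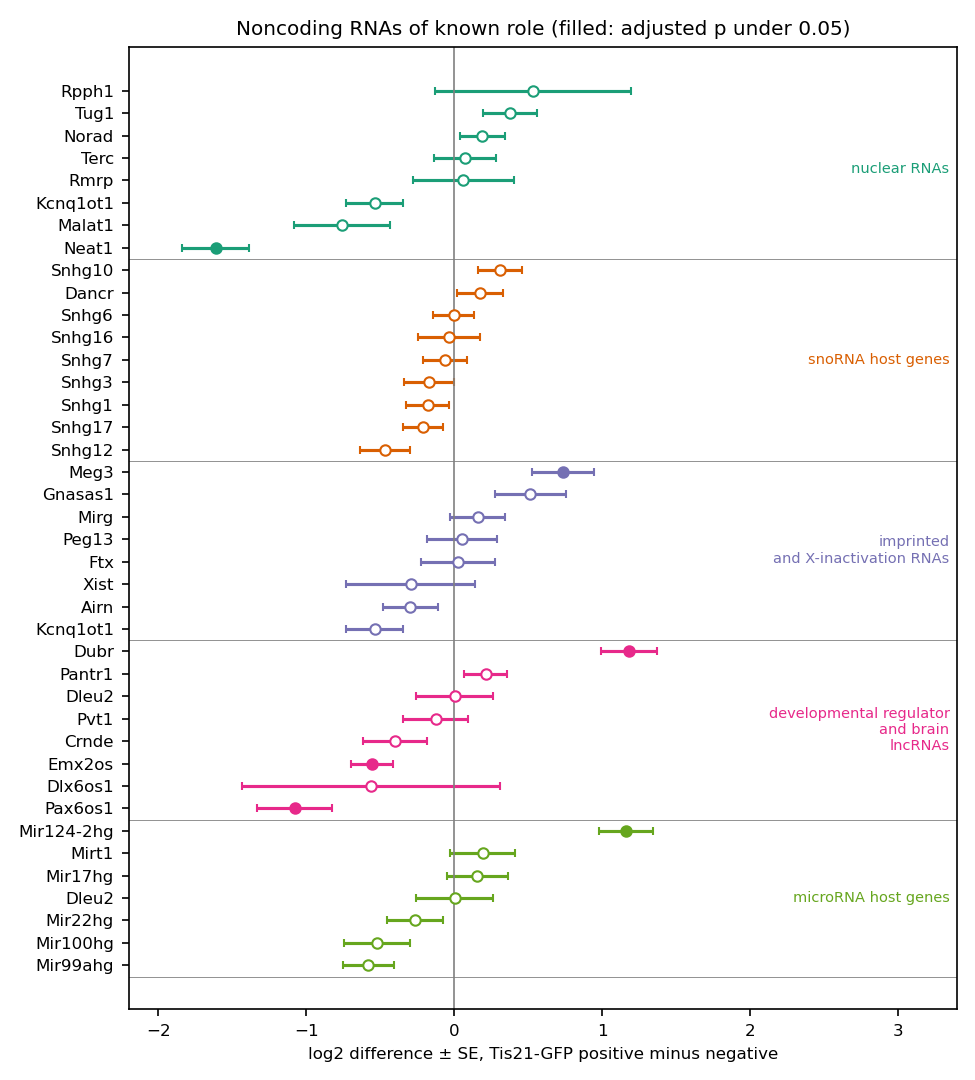
Log2 difference, Tis21-GFP positive minus negative, with its SE (x axis) for noncoding RNAs of known role by list (colour), each gene by its brightest tested probe. Filled points passed the adjusted p of 0.05: Neat1, Emx2os and Pax6os1 were lower, and Meg3, Dubr and Mir124-2hg were higher.

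Of 8 tested lncRNAs listed for development and brain, 1 was higher (Dubr) and 2 lower (Pax6os1 and Emx2os), with a median of -0.262, each gene taken by its brightest probe, so that Pvt1 counted as not called. Pantr1, which lies beside the neural factor gene Pou3f3, had 6.48, 6.41 and 6.43 in positive cells, against 6.08, 6.41 and 6.19 in negative cells. Its difference of 0.21 ± 0.15 (limma adjusted p = 0.333) did not pass, and its nearest arrays of the groups were both at 6.41. Dlx6os1, expressed in ventral telencephalon, had -1.14, -5.04 and -3.23 in positive cells, against -1.80, -3.19 and -2.75 in negative cells. The positive replicates spread over a wide range and overlapped the negative ones (-0.56 ± 0.87, adjusted p = 0.683). Crnde had -0.40 ± 0.22 (adjusted p = 0.236), and Dleu2 had 0.00 ± 0.26 (adjusted p = 0.993).

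Of 7 tested genes on the list of microRNA hosts, 1 was higher and 0 were lower, with a median of 0.004. That list held Mirt1, a lncRNA named for myocardial infarction and not for a microRNA, and without it 1 of 6 was higher and 0 were lower, with a median of -0.13. Mir124-2hg carries a gene of miR-124, the microRNA most characteristic of neurons. It had 0.43, 0.80 and 0.78 in positive cells, against -0.38, -0.32 and -0.77 in negative cells. The groups were apart by 1.16 ± 0.18 (limma adjusted p = 0.00585), and the part of the neuron markers given above in this was not tested. Bhlhe22, the nearest tested coding gene and a cortical projection neuron factor, lay 254254 bases away. Bhlhe22 had 1.66 ± 0.36 (limma adjusted p = 0.0204), a call lost without positive replicate 1 or 2 or negative replicate 2 or 3 (1.34 to 1.69, adjusted p 0.0525 to 0.0645).

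The other hosts did not pass the test. Mir99ahg had 1.09, 0.65 and 1.14 in positive cells, against 1.48, 1.60 and 1.55 in negative cells, with no overlap (-0.58 ± 0.17, limma adjusted p = 0.0573). It passed under 8 alternatives, the authors' values, quantile normalization and normexp among them (-0.75 to -0.49, adjusted p 0.0267 to 0.05). Mir100hg had -0.52 ± 0.22 (adjusted p = 0.145) with overlapping groups, and passed only without negative replicate 2 (-0.75, adjusted p = 0.0484). Mir17hg, host of a cluster known to promote proliferation, had 0.16 ± 0.21 (adjusted p = 0.623). Mir22hg had -0.26 ± 0.19, and Mirt1 had 0.19 ± 0.22. Mature microRNAs of Mir99ahg, Mir100hg, Dleu2, Mir22hg, Mir17hg and Meg3 are printed, 5′ to 3′ with the seed (bases 2 to 8) in capitals, since the array measured the host RNA and not the mature form. Of these, miR-99a-5p, let-7c-5p and miR-17-5p were assigned to their hosts by cluster name and not by a position within the annotated host gene. Sequences are from RefSeq, GRCm38.p6. Those of Mir99ahg and Mir100hg listed at the top share the seed ACCCGUA, and those of Dleu2 share AGCAGCA.
miR-99a-5p, Mir99ahg, chr16:77598940-77598961, plus strand: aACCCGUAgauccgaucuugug
miR-100-5p, Mir100hg, chr9:41531437-41531458, plus strand: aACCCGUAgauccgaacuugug
miR-15a-5p, Dleu2, chr14:61632075-61632096, minus strand: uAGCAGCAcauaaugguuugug
miR-16-5p, Dleu2, chr14:61631936-61631957, minus strand: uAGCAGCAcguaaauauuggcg
let-7c-5p, Mir99ahg, chr16:77599672-77599693, plus strand: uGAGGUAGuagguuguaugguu
miR-125b-5p, Mir100hg, chr9:41581940-41581961, plus strand: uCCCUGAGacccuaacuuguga
miR-22-3p, Mir22hg, chr11:75463772-75463793, plus strand: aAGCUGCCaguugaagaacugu
miR-17-5p, Mir17hg, chr14:115043684-115043706, plus strand: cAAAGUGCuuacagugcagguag
miR-92a-3p, Mir17hg, chr14:115044476-115044496, plus strand: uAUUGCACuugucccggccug
miR-770-5p, Meg3, chr12:109563710-109563731, plus strand: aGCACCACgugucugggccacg
The hosts of the pair with seed ACCCGUA had differences of the same sign, -0.58 and -0.52, neither of them called.

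The lncRNAs were set beside the nearest coding gene with a tested probe, from the RefSeq order of genes. Across the 139 lncRNAs on all 6 arrays, their difference and that of the neighbour correlated at a Spearman rho of 0.376 and Pearson r of 0.374, and 66.2% shared a sign, against 55.6% of neighbouring coding pairs and 59.4% of those within 5000 bases. Over all 154 lncRNAs the rho was 0.401. The rho was 0.439 for the 90 with a gap of at most 5000 bases and 0.359 for the 64 with a larger gap. Of these lncRNAs, 64.4% and 67.2% shared a sign with the neighbour. For 78 pseudogenes the rho was 0.112. For 8791 neighbouring pairs of coding genes it was 0.103, or 0.127 for the 3764 coding pairs within 5000 bases. The pseudogene and coding pairs were not limited to probes well above background on all 6 arrays. These are descriptions over genes measured on the same arrays, which share their libraries, and genes are not independent replicates. In 38 pairs a noncoding gene started within 1000 bases of a coding gene on the opposite strand, 17 of them divergent. In 34 of these the coding gene was tested, with a rho of 0.534, a Pearson r of 0.703 and 25 pairs of the same sign. Over the 29 of them whose noncoding gene was well above background on all 6 arrays, the rho was 0.499, the r was 0.384 and 22 pairs shared a sign. For Gm14207 the nearest tested gene was Vps18, with 0.33 (limma adjusted p = 0.198), and not Dll4.

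**Figure D4:**
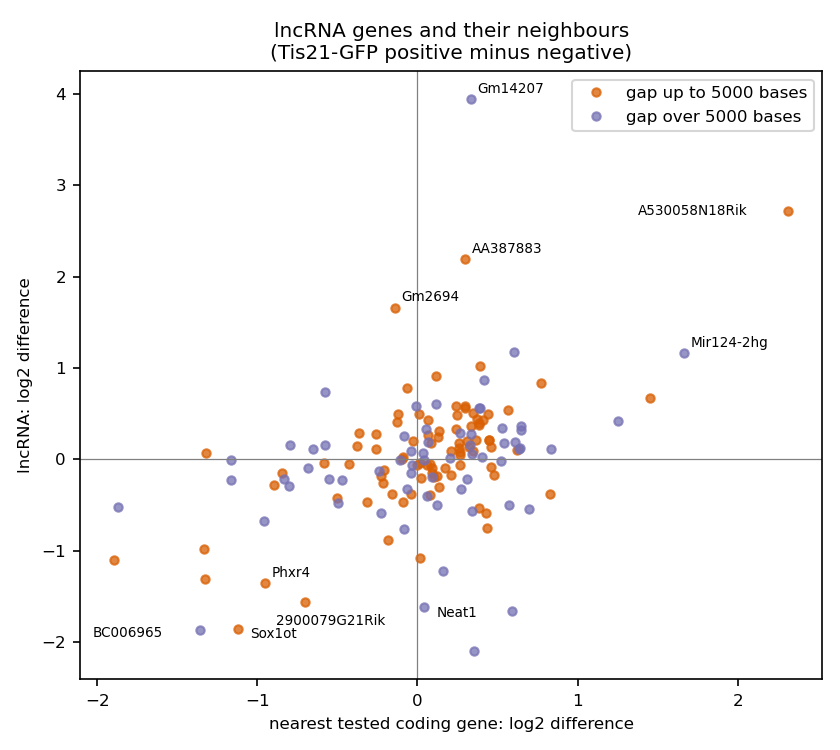
Log2 difference of lncRNA genes (y axis) against that of the nearest tested coding gene (x axis), both Tis21-GFP positive minus negative, for 154 lncRNAs, with gaps up to 5000 bases in orange and larger gaps in violet. Sox1ot and Sox1 are low at -1.86 and -1.12, and Mir124-2hg and Bhlhe22 high at 1.16 and 1.66. The points of A530058N18Rik, Gm14207 and AA387883 rest on signals not well above background on 2 or 3 negative arrays. Those of BC006965 and 2900079G21Rik were well above background on only 2 positive arrays. Of the 154 lncRNAs, 139 were well above background on all 6 arrays.

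Several probes measured 40 member genes with 93 probes. In 30 of these genes the probes had differences of the same sign, in 12 at least 1 probe was called, and in 2 all were (Gm3893 and Sox1ot, of which a Sox1ot probe passed only through the negative arrays). The number with probes called in opposite directions was 0.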

How the data were processed

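Single-colour Agilent arrays (Cy3, 50 ng RNA) measured 6 samples. The deposited scanner files hold spot intensities that Agilent Feature Extraction 10.7.1.1 had background-corrected, per the file headers. The authors also deposited log2 values of the same arrays, used as an alternative; no header or label states how those were normalized. Processed intensities were taken as log2 minus the array's 75th percentile over non-control probes. Different probes of a gene were kept apart. Probes well above background in all 3 arrays of either group (28922) were fitted on group with limma 3.58.1 in R 4.3.3 (lmFit, eBayes), with Benjamini-Hochberg adjustment over all of them and a threshold of 0.05; the fit was tested on simulated data. All 6 arrays lay on 1 slide, so no batch could be fitted. With 3 arrays a group, their number limits the precision.

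The members and lists were chosen with earlier results of these data known. Named genes were up to 12 a direction with the largest called difference among members on all 6 arrays with groups apart, members with the largest bounds, all tested listed genes, those nearest the detection threshold, and coding partners. The smaller calls, A530058N18Rik, BC006965 and 2900079G21Rik were named after their values were seen. Bounds set the dimmer group at the lowest signal called well above background. Symbols came from RefSeq through accessions without versions (655 of 724 noncoding probes matched), and promoter and microRNA sequences from RefSeq, GRCm38.p6. Replicate numbers paired the samples: same-numbered deviations from the group means correlated at 0.167, 0.122 and 0.351, and the highest other value was 0.071. The blocked value is given where it ends the call of a named gene, and calls gained under the block are in the closing section. Alternatives were other scalings, quantile normalization, normexp background correction, the authors' values, other filters, 1 probe per gene, a variance trend with a robust fit, the replicate block and leaving out each array. Leaving out pseudogenes, Mirt1 or start pairs with a member not on all 6 arrays, and running every alternative on the machinery and neighbour results, were chosen after seeing the data.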

Additional observations from a re-analysis of the deposited data

How the results depend on the processing

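Of the 42 called probes, 17 were called under each alternative that gave them a value (7 of the 17 had none under at least 1), 25 were not, and 0 changed direction. Among the 17, Gm14207, A530058N18Rik, AA387883 and Ipw passed detection through 1 group only, so their calls remain a description. Normexp background correction, with its offset of 50 and quantile normalization, shrank 22 of the 42 differences by over 1.5 times. A530058N18Rik at 0.949 and Gm14207 at 1.172 were among them. Median centring gave 36 higher and 16 lower of all members, 31 and 11 on all 6 arrays, and a median of 0.299. Scaling by the percentile of probes that all 6 arrays detected gave 11 higher, 8 on all 6 arrays, and a median of -0.055. These scalings put the median of all tested probes at 0.268 and -0.087, against 0.087, and 65.2% and 24.8% of all calls were then higher, against 45.6%; of members' calls 69.2% and 26.2% were, against 40.5%. Without a filter on dim probes 8 were higher and 10 lower, 5 and 9 on all 6 arrays. With 1 probe per gene 26 were higher, 22 on all 6 arrays, and with a variance trend and robust fit 28 and 25. Without pseudogenes 12 on all 6 arrays were lower. Leaving out 1 array gave 10 to 19 higher and 10 to 34 lower, or 7 to 16 and 9 to 25 on all 6 arrays. The replicate block gave 18 higher and 26 lower, sharing 37 calls, gaining 7 and losing 5, among them Gm9199 (adjusted p = 0.0501). The gained calls were 4933417G07Rik (adjusted p = 0.0312), 2610306M01Rik (0.0401), Flicr (0.0154), 4931406H21Rik (0.0452), Gm5801 (0.0475), Rprl3 (0.0186) and Gm4759 (0.0361). Flicr and Rprl3 passed detection through 1 group only. Machinery genes called higher numbered 5 with median centring, 2 with the detected-probe percentile, and 1 with the authors' values, quantile normalization or no filter. The number lower was 1 with the detected-probe percentile, the authors' values, normexp or quantile normalization. Leaving out 1 array gave 1 to 2 higher and 0 to 1 lower. The causes were not tested.

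Genes without a call changed sign as follows. With the detected-probe percentile Terc had -0.099, Rmrp -0.111, Dleu2 -0.169, Ftx -0.146, Mir17hg -0.016, Mirg -0.014 and Peg13 -0.121. With the authors' values Pantr1 had -0.066, Dancr -0.006, Dleu2 -0.005, Mir17hg -0.034, Norad -0.021 and Peg13 -0.144. With quantile normalization they had -0.063, -0.004, -0.005, -0.032, -0.019 and -0.142. With normexp Pantr1 had -0.086, Mir17hg -0.121, Norad -0.032 and Peg13 -0.151. With median centring Snhg7 had 0.124, Snhg3 0.011, Snhg1 0.004, Snhg16 0.147, Pvt1 0.056 and Snhg6 0.181. Leaving out 1 array in turn gave ranges that crossed 0, at -0.232 to 0.216 for Dleu2, -1.558 to 0.393 for Dlx6os1, -0.235 to 0.256 for Ftx, -0.003 to 0.408 for Mirt1, -0.124 to 0.249 for Peg13, -0.365 to 0.01 for the brighter Pvt1 probe, -0.171 to 0.475 for Rmrp, -0.142 to 0.159 for Snhg16, -0.057 to 0.065 for Snhg6, -0.135 to 0.022 for Snhg7, -0.076 to 0.25 for Terc and -0.8 to 0.096 for Xist. The arrays' number, 3 a group, and low signals near background limit these values.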

Other observations

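Protein-coding genes that make, process or bind noncoding RNAs were measured on the same arrays. Of 44 tested machinery genes, 3 were higher in positive cells and 0 were lower by limma, with a median difference of 0.151 and a range of -0.53 to 1.28. Among all tested probes 7.52% were higher and 8.96% lower, and among those with an NM_ accession 9.1% and 10.6%, so the machinery count was not above the background. Ago1, which loads microRNAs, had 2.46, 2.91 and 2.68 in positive cells, against 1.22, 1.44 and 1.57 in negative cells (1.28 ± 0.17, limma adjusted p = 0.00306), with no overlap. Nono, a paraspeckle protein, had 6.71, 6.78 and 6.87 in positive cells, against 6.02, 6.19 and 6.02 in negative cells (0.71 ± 0.14, limma adjusted p = 0.0132), in the direction opposite to that of Neat1 RNA. The Nono call was lost without negative replicate 1 or 3 (adjusted p 0.0586 to 0.0631). Wrap53, a telomerase RNA-binding protein, had a difference of 0.50 ± 0.14 (limma adjusted p = 0.0461), which was lost on leaving out any 1 array (adjusted p 0.0614 to 0.162) and with the replicate block (limma adjusted p = 0.051).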
